A study of Homo sapiens with 15 samples.

Results

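The comparison described here sets MDA-MB-231 cells treated with 50 nM ZJ-101 against the same cells treated with DMSO, the solvent. It rests on 6 of the 15 libraries of the series, namely 3 biological replicates of each group, and on the 13561 genes (of 59608 in the table) whose normalized counts averaged 10 or more over all libraries. MDA-MB-231 is an established human breast cancer cell line with a mesenchymal appearance, and ZJ-101 is a synthetic compound modelled on superstolide A, a product of a sea sponge. All dishes were grown in 2D culture and lysed after 6 h of treatment, and poly-A RNA was sequenced. The other 9 libraries held cells given 0.5, 5 or 500 nM ZJ-101, 3 per dose, and enter below only through a shared estimate of the spread or where they are named. As 1 cell line was used, the replicates differ by dish and not by donor, and the p-values measure the spread between such dishes.

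Proteins that are secreted or that sit in the cell membrane are made at the endoplasmic reticulum (ER), where chaperones and disulfide isomerases fold them and sugar chains are attached. They leave the ER in COPII vesicles and have their glycans remodelled in the Golgi apparatus before they reach the cell surface, the matrix or the lysosome. Cells watch over protein folding with separate programs. Misfolding in the cytosol activates HSF1, which induces heat-shock chaperones such as HSP70, HSP90 and their partners, whereas misfolding in the ER activates the unfolded protein response (UPR), whose factors XBP1, ATF6 and ATF4 induce ER chaperones and amino acid supply. The study sequenced RNA to find the pathways that change under ZJ-101, and 50 nM is the second highest of its doses.

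Recovered reads on genes numbered 13262548 to 14099280 per DMSO library and 12415519 to 12623863 per 50 nM library. Mitochondrially encoded genes took 0.942% to 1.58% of the reads with DMSO and 1.15% to 1.77% at 50 nM, so these ranges overlapped. The cell line was checked against marker genes. The 15 mesenchymal markers summed to between 82372 and 85297 normalized counts with DMSO and between 84520 and 86143 at 50 nM, and of them TWIST1 was under 1 on average. The 18 luminal epithelial markers summed to 27464 to 28694 and 25785 to 28003, with ESR1 and GRHL2 under 1. Of the 18 luminal markers 15 were among the tested genes, as were 12 of the 15 mesenchymal markers. Most members of both lists were thus expressed, and the check did not show an absence of luminal transcripts. Of 16 blood and endothelial markers 9 were under 1, and of 11 fibroblast markers 6 were under 1, and these lists summed to at most 529 and 300.3 normalized counts in any of the 6 libraries. In bulk RNA a smaller number of cells of one kind and less RNA per cell cannot be told apart.

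A total of 814 genes were differentially expressed at 50 nM (adjusted p under 0.05), which is 6.00% of those tested. Of these 311 rose (2.29% of the tested genes) and 503 fell (3.71%). Every list count below is to be read beside these 2 shares. Most changes were small, as the median log2 fold change was 0.30 among the genes that rose and -0.38 among those that fell, and 257 of the 311 rises and 340 of the 503 falls were under 0.5 in size on that scale. Only 34 genes changed by at least 1 on the log2 scale, and 30 of these fell. In each of the 814 genes the 3 libraries of 50 nM lay apart from the 3 of DMSO, which was also the case for 24.8% of all tested genes. The fold change of the median gene was -0.00 on the log2 scale, with quartiles of -0.09 and 0.09. The number of calls depended on single libraries, and lay between 560 and 1276 when 1 library was left out, with the highest number without 0.5 nM replicate 2, which enters only through the shared spread. Without that library 539 genes rose, whereas 197 rose without DMSO replicate 2 and 204 without 50 nM replicate 1.

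**Figure D1:**
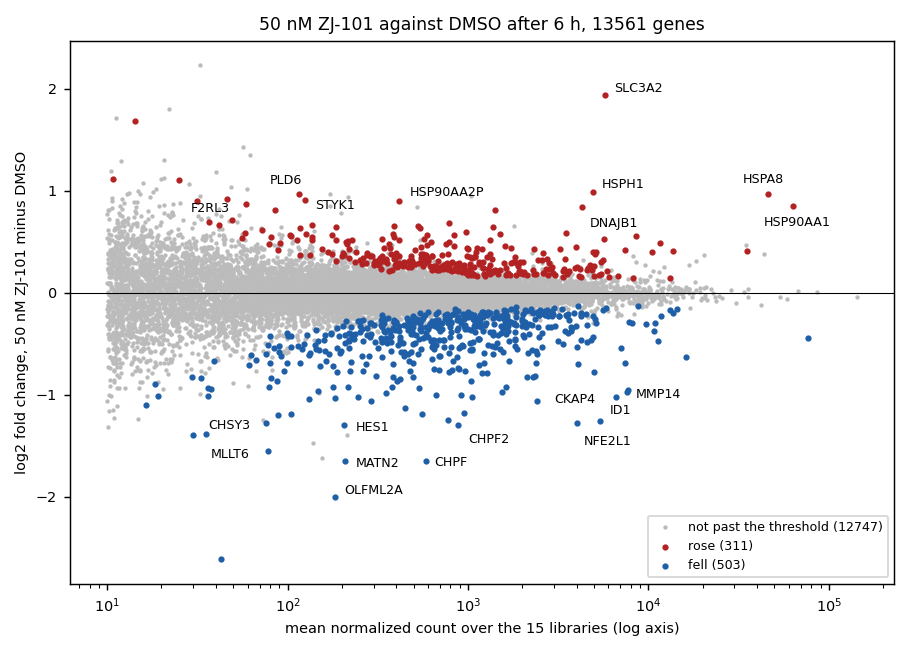
Log2 fold change of 50 nM ZJ-101 against DMSO (vertical) for each of the 13561 tested genes against its mean normalized count over the 15 libraries (horizontal, log axis). Red points are the 311 genes that rose and blue points the 503 that fell at an adjusted p under 0.05; SLC3A2 stands above all other well-expressed genes, and among genes that changed by at least 1 on this scale 30 fell and 4 rose.

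The largest rise was that of SLC3A2 (chr11:62856004-62888880 in GENCODE release 44 on GRCh38), which encodes the CD98 heavy chain that carries several amino acid transporters to the cell surface and also binds integrins. It had 2612, 2433 and 2389 normalized counts with DMSO and 9851, 9062 and 9539 at 50 nM. All treated libraries lay far above all controls, and SLC3A2 rose 3.83-fold (log2 fold change 1.94 ± 0.07 (SE), adjusted p = 2.5e-12). Its partners had smaller fold changes. SLC7A5, the light chain that imports large neutral amino acids with it, had 4356, 4418 and 4395 normalized counts with DMSO and 5458, 4797 and 5165 at 50 nM (log2 fold change 0.23 ± 0.06 (SE), adjusted p = 0.02). SLC7A11, the cystine transporter that pairs with the same heavy chain, had 511, 475 and 491 normalized counts with DMSO and 658, 573 and 685 at 50 nM (log2 fold change 0.37 ± 0.07 (SE), adjusted p = 0.0029). Of 23 amino acid transporters tested, 5 rose and 2 fell, the other rises being SLC1A5 (0.20 ± 0.04), a glutamine transporter, and SLC38A9 (0.33 ± 0.06), the arginine sensor of the lysosome. SLC38A10 (-0.55 ± 0.05) and SLC38A2 (-0.17 ± 0.04) fell, and the call of the latter was lost when replicate 1 or 3 of DMSO or of 50 nM was left out.

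SLC3A2 is also a target of ATF4, the factor that raises amino acid supply under stress. Of 39 ATF4 target genes tested, 4 rose and 6 fell, and the median log2 fold change of the list was -0.03. The 4 that rose were SLC3A2, SLC7A11, SLC1A5 and SLC7A5, all amino acid transporters. DDIT4, an inhibitor of mTORC1 signalling, had 1227, 1225 and 1085 normalized counts with DMSO and 738, 922 and 858 at 50 nM and fell (log2 fold change -0.49 ± 0.08 (SE), adjusted p = 2.7e-04), as did the lipoprotein receptor VLDLR (-0.58 ± 0.10) and KLHL24 (-0.45 ± 0.10). Leaving out DMSO replicate 1, DMSO replicate 3 or 50 nM replicate 1 gave 3 falls. ATF4 itself had 3694 ± 144 normalized counts with DMSO and 3550.4 ± 123.3 at 50 nM (SD, n = 3) and DDIT3, the CHOP factor of the ER stress response, 56.2 ± 8.94 normalized counts with DMSO and 60.6 ± 1.90 at 50 nM (SD, n = 3), and neither passed the threshold (adjusted p = 0.66 and 0.82, both genes chosen after their values were seen). Among 24 cytosolic tRNA synthetases, which ATF4 also induces, 1 changed (4.17%, against 3.71% of all tested genes that fell). It was AARS1, with 1895, 1865 and 1892 normalized counts with DMSO and 1687, 1683 and 1749 at 50 nM, which fell slightly (log2 fold change -0.14 ± 0.04 (SE), adjusted p = 0.036). This call was lost in 8 of the alternatives.

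Many heat-shock genes rose. Of 38 heat-shock genes 33 passed the filter on low values, and 25 of these rose and 0 fell, against 2.29% of all tested genes that rose. The median log2 fold change over the 33 was 0.35, against -0.00 over all tested genes, and between 20 and 25 members rose when 1 library was left out. Without adjustment (p under 0.05), 26 rose and 0 fell, and edgeR and DESeq2 on recovered reads gave 24 rises and 0 falls each. HSPA8, the constitutive HSP70, had 32830.5, 30333 and 29338 normalized counts with DMSO and 63856, 57772 and 59543 at 50 nM and rose 1.96-fold (log2 fold change 0.97 ± 0.06 (SE), adjusted p = 1.3e-09). HSPH1, the HSP110 nucleotide exchange factor of HSP70, had 3284, 2994 and 3149 normalized counts with DMSO and 6672, 5589.7 and 6509 at 50 nM (log2 fold change 0.99 ± 0.07 (SE), adjusted p = 8.1e-09). DNAJB1, a J-domain protein that delivers misfolded clients to HSP70, had 3033, 3053 and 2861 normalized counts with DMSO and 5415, 5452 and 5192 at 50 nM (log2 fold change 0.84 ± 0.04 (SE), adjusted p = 3.3e-10). In these genes the treated libraries stood well apart from the controls.

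HSP90AA1, the stress-inducible cytosolic HSP90, had 43811, 44274 and 43780.4 normalized counts with DMSO and 83750.5, 75658 and 78865 at 50 nM, and it rose 1.81-fold (log2 fold change 0.85 ± 0.06 (SE), adjusted p = 1.2e-08). The processed pseudogene HSP90AA2P had 276, 305 and 281 normalized counts with DMSO and 619, 494 and 499 at 50 nM (log2 fold change 0.90 ± 0.08 (SE), adjusted p = 3.2e-07). Its transcript is nearly identical to that of HSP90AA1, so that reads of one can be counted in the other and the value of the pseudogene is uncertain. The constitutive isoform HSP90AB1 had 29465, 29072 and 28848 normalized counts with DMSO and 40909, 36763 and 38493 at 50 nM and rose less (log2 fold change 0.41 ± 0.05 (SE), adjusted p = 9.2e-06). Of 25 HSP90 co-chaperones tested 10 rose and 0 fell (13 and 0 at an unadjusted p under 0.05, 10 and 0 by edgeR, 11 and 0 by DESeq2). This list overlaps that of the heat-shock genes, in which CHORDC1, AHSA1 and STIP1 were already counted. CHORDC1, a zinc-binding co-chaperone, had 988, 1019.7 and 1069 normalized counts with DMSO and 1879, 1619 and 1899.7 at 50 nM (log2 fold change 0.81 ± 0.07 (SE), adjusted p = 2.2e-07). AHSA1, which stimulates the ATPase of HSP90, had 3264, 3253 and 3236 normalized counts with DMSO and 4598, 4337 and 4346 at 50 nM (log2 fold change 0.44 ± 0.04 (SE), adjusted p = 1.8e-07). STIP1, which links HSP70 to HSP90, had 6370.3, 6175 and 6045 normalized counts with DMSO and 7817, 8371 and 8635 at 50 nM (log2 fold change 0.42 ± 0.04 (SE), adjusted p = 1.5e-06). The treated libraries of these 3 co-chaperones all lay above the controls.

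The mitochondrial pair HSPD1 and HSPE1 rose by 0.40 ± 0.06 and 0.38 ± 0.11, and the small heat-shock protein HSPB1 by 0.43 ± 0.05. HSPA6, a strictly inducible HSP70, showed the second largest fold change of all rises (1.69 ± 0.44) at few reads, with 6.73, 2.02 and 5.07 normalized counts with DMSO and 24.7, 16.4 and 9.57 at 50 nM (adjusted p = 0.027). These 4 genes fall outside the naming rule and were chosen after their values were seen. Of 15 subunits of the TRiC chaperonin and prefoldin, which fold actin and tubulin, TCP1 (0.32 ± 0.05) and CCT6A (0.21 ± 0.04) rose and 0 fell (7 and 0 at an unadjusted p under 0.05, 2 and 0 by edgeR, 3 and 0 by DESeq2), and 5 rose without 0.5 nM replicate 2. Among 40 proteasome genes 0 rose and 0 fell by limma, edgeR or DESeq2 (0 and 1 at an unadjusted p under 0.05).

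Sequences upstream of chaperone genes are shown because HSF1 binds a heat-shock element, which is made of inverted GAA units. RefSeq promoters of 300 bases, which run from 250 bases before to 50 after the start site, were matched by symbol to 10029 of the 13561 tested genes (74.0%). The letters GAANNTTCNNGAA were searched on both strands and found in 32 of the 10029 promoters (0.319%). They were found in 6 of the 240 promoters of genes that rose (2.50%), namely those of HSPA8, CHORDC1, DNAJA1, DNAJB6, HSPA6 and ABHD3, and in 0 of the 405 of genes that fell. Of 23 promoters of heat-shock genes that rose, 5 held the letters (21.7%), so most did not. Over all 27305 promoters of the table the share was 0.487%. A match is a run of letters and not a measured binding site. The 250 bases before the start sites of HSPA8 (GRCh38.p14, minus strand, chr11:123062137-123062386) and CHORDC1 (minus strand, chr11:90223050-90223299) follow, 5′ to 3′, with the matches in capitals.
HSPA8: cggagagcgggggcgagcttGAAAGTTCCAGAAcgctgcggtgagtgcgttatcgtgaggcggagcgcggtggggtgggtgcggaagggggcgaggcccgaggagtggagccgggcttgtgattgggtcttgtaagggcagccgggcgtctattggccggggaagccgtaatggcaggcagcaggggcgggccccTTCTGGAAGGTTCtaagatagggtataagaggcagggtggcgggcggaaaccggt
CHORDC1: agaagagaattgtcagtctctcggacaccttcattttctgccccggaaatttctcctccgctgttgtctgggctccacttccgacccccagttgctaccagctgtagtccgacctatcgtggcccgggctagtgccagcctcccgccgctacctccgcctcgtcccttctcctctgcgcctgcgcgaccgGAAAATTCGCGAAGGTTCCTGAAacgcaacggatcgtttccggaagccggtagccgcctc
HSPA8 held 2 matches, which began 55 and 230 bases before the start, and CHORDC1 held 3 overlapping matches that began between 50 and 60 bases before it.

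**Figure D2:**
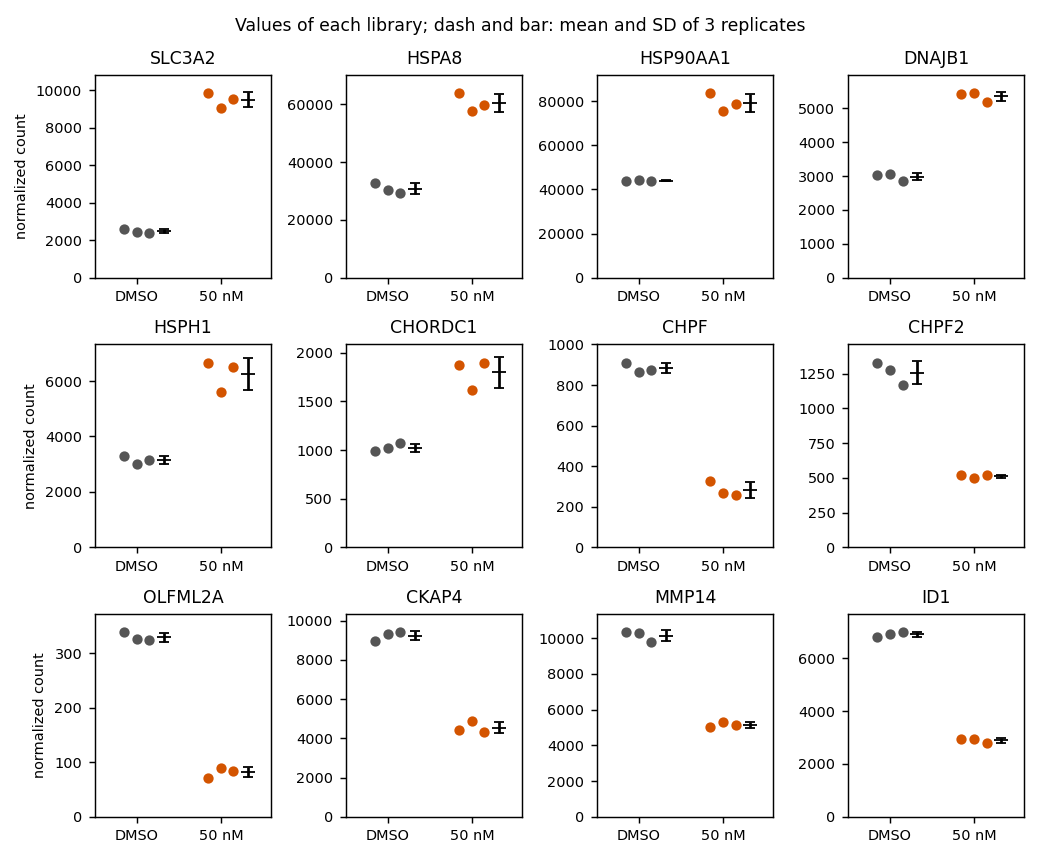
Normalized counts (vertical, from 0) of each DMSO library (grey) and each 50 nM library (orange) for 6 genes that rose and 6 that fell, with the mean and SD of the 3 replicates beside the points. In none of the 12 genes did the groups overlap, and SLC3A2 moved from 2478 to 9484 on average.

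Among ER chaperones and the genes listed with them only falls passed the threshold. Of 42 genes for folding in the ER lumen 18 fell and 0 rose (24 and 1 at an unadjusted p under 0.05, 18 and 0 by edgeR, 21 and 0 by DESeq2), against 3.71% of all tested genes that fell, and the median log2 fold change of the list was -0.19. CKAP4, a membrane protein of ER sheets, is counted in this list although it is not a folding gene of the lumen. It had 8969.7, 9289.9 and 9411 normalized counts with DMSO and 4411, 4864 and 4338 at 50 nM and fell by 50.9% (log2 fold change -1.02 ± 0.05 (SE), adjusted p = 4.2e-10). DNAJC3, a J-domain partner of the ER HSP70 that also restrains the kinase PERK, had 1311, 1388 and 1356 normalized counts with DMSO and 675, 687 and 656 at 50 nM (log2 fold change -1.01 ± 0.07 (SE), adjusted p = 8.1e-09). MANF, a secreted ER stress protein, had 1711, 1694 and 1550.2 normalized counts with DMSO and 926, 1006 and 934 at 50 nM (log2 fold change -0.79 ± 0.05 (SE), adjusted p = 1.2e-08). The treated libraries of these genes all lay well below the controls.

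The abundant chaperones fell by less. HSPA5, the ER HSP70 known as BiP, had 14375, 14267 and 13787 normalized counts with DMSO and 10064, 10736 and 9771 at 50 nM (log2 fold change -0.47 ± 0.04 (SE), adjusted p = 4.0e-07). CALR, the lectin chaperone calreticulin, had 20406, 20405 and 19655 normalized counts with DMSO and 12118, 14204 and 12847 at 50 nM (log2 fold change -0.63 ± 0.05 (SE), adjusted p = 7.3e-08). HSP90B1, the ER HSP90, had 16023, 15886 and 15940.5 normalized counts with DMSO and 14487, 14717 and 13716 at 50 nM (log2 fold change -0.16 ± 0.04 (SE), adjusted p = 0.028). These 3 genes were chosen after their values were seen. DNAJB9, an ER J-domain protein named by the study, had 354, 344 and 316 normalized counts with DMSO and 303, 329 and 347 at 50 nM and did not pass the threshold (log2 fold change -0.05 ± 0.08 (SE), adjusted p = 0.84). Its groups overlapped.

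The promoters of ER chaperones are shown for the ER stress response element, to which ATF6 binds together with NF-Y and which carries CCAAT and CCACG 9 bases apart. Its letters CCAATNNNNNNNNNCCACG were found on either strand in 14 of the 10029 promoters of tested genes (0.140%), in 6 of the 405 of genes that fell (1.48%) and in 0 of the 240 of genes that rose. The 6 genes were CALR, CRELD2, ERO1B, HSP90B1, HSPA5 and XBP1, and all but XBP1 belong to the list of ER folding genes. Of 18 promoters of ER folding genes that fell, 5 held the element (27.8%), so most did not. Over all 27305 promoters the share was 0.0806%. The letters ACGTGGC, an element of Golgi stress genes, hold the reverse complement of CCACG, so that 1 stretch can match both elements. They were found on either strand in 33 of the 405 promoters of genes that fell (8.15%), in 12 of the 240 of genes that rose (5.00%) and in 4.39% of the promoters of tested genes (3.30% of all promoters). The letters TCACGTGA, an E-box of lysosomal genes that shares ACGTG with that element, were found in 1.48%, 1.25%, 1.94% and 1.04% in the same order. The 250 bases before the starts of HSPA5 (GRCh38.p14, minus strand, chr9:125241344-125241593), HSP90B1 (plus strand, chr12:103930160-103930409) and CALR (plus strand, chr19:12938359-12938608) follow with the ER stress response element in capitals.
HSPA5: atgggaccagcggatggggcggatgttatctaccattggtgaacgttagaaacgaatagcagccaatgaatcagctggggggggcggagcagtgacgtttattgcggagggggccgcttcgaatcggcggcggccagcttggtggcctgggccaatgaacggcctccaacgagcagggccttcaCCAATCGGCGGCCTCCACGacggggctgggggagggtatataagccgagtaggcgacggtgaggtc
HSP90B1: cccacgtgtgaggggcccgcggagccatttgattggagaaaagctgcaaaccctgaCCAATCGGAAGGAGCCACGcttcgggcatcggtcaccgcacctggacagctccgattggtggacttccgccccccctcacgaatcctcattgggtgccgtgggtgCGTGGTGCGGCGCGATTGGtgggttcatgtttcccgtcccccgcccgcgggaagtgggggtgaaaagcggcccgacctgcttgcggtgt
CALR: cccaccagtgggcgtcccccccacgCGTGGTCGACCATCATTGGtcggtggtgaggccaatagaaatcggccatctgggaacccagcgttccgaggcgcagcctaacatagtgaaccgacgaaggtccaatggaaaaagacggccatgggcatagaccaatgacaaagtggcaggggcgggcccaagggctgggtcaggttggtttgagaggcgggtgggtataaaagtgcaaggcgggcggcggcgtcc
The match began 66 bases before the start in HSPA5 and 225 bases before it in CALR, and HSP90B1 held 2 matches that began 89 and 194 bases before it.

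Among the sensors and factors of the UPR, 1 of 18 rose (5.56%) and 4 fell (22.2%), against 2.29% and 3.71% of all tested genes. XBP1, whose spliced form drives ER expansion, had 1907, 1876 and 1736 normalized counts with DMSO and 1181, 1321 and 1143 at 50 nM and fell (log2 fold change -0.60 ± 0.06 (SE), adjusted p = 6.7e-07). ATF6, the membrane-bound factor that is cleaved in the Golgi, had 1157, 1101 and 1082 normalized counts with DMSO and 794, 761 and 792 at 50 nM (log2 fold change -0.51 ± 0.05 (SE), adjusted p = 3.0e-06). CREB3L1 (-0.21 ± 0.06) and the kinase PERK, encoded by EIF2AK3 (-0.27 ± 0.08), fell as well. Leaving out replicate 1 or 3 of DMSO, of 50 nM or of 500 nM gave 2 falls. PPP1R15A, or GADD34, which ends the translational arrest caused by PERK, had 1113, 1003 and 920.2 normalized counts with DMSO and 1461, 1298 and 1322 at 50 nM and rose (log2 fold change 0.43 ± 0.07 (SE), adjusted p = 3.8e-04).

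ER-associated degradation, which extracts misfolded proteins for the proteasome, split into both directions with 4 rises and 4 falls among 30 genes. Each count is 13.3% of the list, against 2.29% of all tested genes that rose and 3.71% that fell. The lectin ERLEC1 had 928, 913 and 906 normalized counts with DMSO and 524, 546 and 555 at 50 nM (log2 fold change -0.76 ± 0.05 (SE), adjusted p = 8.1e-09). The mannosidase-like EDEM3 had 1473, 1388 and 1448 normalized counts with DMSO and 862, 808 and 824 at 50 nM (log2 fold change -0.79 ± 0.08 (SE), adjusted p = 1.4e-06), followed by EDEM1 (-0.52 ± 0.06) and HERPUD1 (-0.51 ± 0.07). The genes that rose were SELENOS (0.29 ± 0.05), FAF2 (0.30 ± 0.06), AUP1 (0.22 ± 0.06) and the ligase SYVN1 (0.17 ± 0.05). Only 2 rises were left when DMSO replicate 3 or 50 nM replicate 2 or 3 was dropped. Of 25 genes of the translocon, signal peptidase and TRAP complex, TRAM2 (0.40 ± 0.06), SEC62 (0.29 ± 0.05), SSR3 (0.23 ± 0.04) and the signal recognition receptor subunit SRPRB (0.36 ± 0.07) rose. SPCS3 (-0.30 ± 0.05) and SSR1 (-0.12 ± 0.04) fell, the latter a call that 15 alternatives lost.

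Of 26 cargo and retrieval receptors between the ER and the Golgi 10 fell and 2 rose, with a median log2 fold change of -0.16. The p24 family, which packs cargo into vesicles, supplied the leading members. TMED7 had 2224, 2221 and 2329 normalized counts with DMSO and 1576, 1569 and 1585 at 50 nM (log2 fold change -0.52 ± 0.05 (SE), adjusted p = 2.1e-06). TMED9 had 3635, 3846 and 3618 normalized counts with DMSO and 2649, 2819 and 2514 at 50 nM (log2 fold change -0.48 ± 0.05 (SE), adjusted p = 2.5e-06). TMED3 had 1237, 1275 and 1119 normalized counts with DMSO and 817, 874 and 772 at 50 nM (log2 fold change -0.56 ± 0.07 (SE), adjusted p = 1.6e-05). CNIH1 (0.18 ± 0.04) and RER1 (0.17 ± 0.05) rose, and 1 or 0 of them did so in 11 of the fits that left out 1 library. The count was 0 when DMSO replicate 3 or 50 nM replicate 2 was dropped. In the COPII coat and ER exit sites 4 of 17 genes fell (23.5%) and 2 rose (11.8%), against 3.71% and 2.29% of all tested genes. SEC24D, a cargo-binding subunit of the coat, had 1267, 1225 and 1179.9 normalized counts with DMSO and 731, 751 and 683 at 50 nM (log2 fold change -0.76 ± 0.06 (SE), adjusted p = 1.8e-07). SEC24A (-0.35 ± 0.08), SEC31A (-0.26 ± 0.06) and SEC23A (-0.17 ± 0.04) fell by less. Dropping replicate 1 of DMSO or of 50 nM left 2 falls. The genes that rose, MIA3 (0.36 ± 0.07) and MIA2 (0.27 ± 0.06), encode the TANGO1 family, which loads bulky cargo such as collagen.

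In both the coat and the tethering list of the Golgi 10.5% of members fell, against 3.71% of all tested genes. Of 19 genes of the COPI coat and its ARF factors, COPG1 (-0.22 ± 0.04) and COPA (-0.20 ± 0.06) fell and 0 rose (7 and 0 at an unadjusted p under 0.05, 2 and 0 by edgeR and by DESeq2), with 4 falls without 0.5 nM replicate 2 and 1 without each DMSO replicate. Of 38 golgins and tethers, ACBD3 (-0.29 ± 0.06), GOLGA2 (-0.24 ± 0.05), GOLGA5 (-0.24 ± 0.05) and GOLPH3 (-0.17 ± 0.04) fell and 0 rose (7 and 1 at an unadjusted p, 4 and 0 by edgeR, 5 and 0 by DESeq2), and 2 fell without 50 nM replicate 1. Of 41 SNAREs and fusion factors 0 rose and 0 fell by limma, edgeR or DESeq2 (3 and 4 at an unadjusted p under 0.05).

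The synthesis of glycosaminoglycans, the long sugar chains of proteoglycans, held some of the largest falls. Of 37 genes 18 fell and 1 rose, against 3.71% and 2.29% of all tested genes, and the median log2 fold change was -0.18. CHPF (chr2:219538954-219543809), a subunit of the chondroitin polymerase, had 911, 863 and 874 normalized counts with DMSO and 326, 266 and 255 at 50 nM and fell by 68.1% (log2 fold change -1.65 ± 0.08 (SE), adjusted p = 3.1e-10). Its paralog CHPF2 had 1331, 1279.7 and 1166 normalized counts with DMSO and 518, 499.9 and 518 at 50 nM (log2 fold change -1.29 ± 0.07 (SE), adjusted p = 4.7e-10), although 22.1% of its exon bases lie within exons of other genes. CHSY3, a chondroitin synthase, had 123.0, 116 and 107 normalized counts with DMSO and 49.4, 38.2 and 54.2 at 50 nM (log2 fold change -1.28 ± 0.17 (SE), adjusted p = 5.5e-05). No treated library of these genes came near the controls.

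EXT1, a polymerase of heparan sulfate, had 4066, 4081 and 3928 normalized counts with DMSO and 2886, 2808 and 2849.5 at 50 nM and fell (log2 fold change -0.50 ± 0.05 (SE), adjusted p = 3.2e-06). CSGALNACT2, which starts chondroitin chains, had 2281, 2335 and 2179 normalized counts with DMSO and 2803, 2905 and 2805 at 50 nM and was the member that rose (log2 fold change 0.33 ± 0.04 (SE), adjusted p = 4.5e-05). Of 24 genes of mucin-type and other O-glycosylation 8 fell and 0 rose (13 and 1 at an unadjusted p, 8 and 0 by edgeR and by DESeq2). GALNT1, which starts mucin-type chains, had 1511, 1502 and 1550.2 normalized counts with DMSO and 965, 1068 and 1010.5 at 50 nM (log2 fold change -0.59 ± 0.05 (SE), adjusted p = 1.4e-07). The O-fucosyltransferases POFUT1 (-0.38 ± 0.05) and POFUT2 (-0.58 ± 0.07) fell with it. Of 18 galactosyltransferases 8 fell and 0 rose (11 and 0 at an unadjusted p, 7 and 0 by edgeR and by DESeq2). Without any one of the 6 libraries compared 3 to 5 fell, with 3 for DMSO replicate 2 and for 50 nM replicate 3. B4GALT1, the main galactosyltransferase of N-glycans, had 2771, 2713 and 2610.4 normalized counts with DMSO and 1487, 1552 and 1537 at 50 nM (log2 fold change -0.82 ± 0.05 (SE), adjusted p = 4.2e-09). B4GALT5 of glycolipid synthesis (-0.37 ± 0.06) and C1GALT1, which makes the core of mucin-type glycans (-0.27 ± 0.05), fell too.

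Of 53 genes of N-glycosylation 5 rose (9.43%) and 4 fell (7.55%), against 2.29% and 3.71% of all tested genes. Most of the list passed in neither direction, and its median log2 fold change was 0.02. The counts were 2 and 9 rises without DMSO replicate 2 and 0.5 nM replicate 2, with 2 also without 50 nM replicate 1 and 3 without 50 nM replicate 3. The genes that rose, ALG2 (0.44 ± 0.05), DOLPP1 (0.37 ± 0.06), ALG1 (0.36 ± 0.08), DOLK (0.31 ± 0.08) and ALG5 (0.31 ± 0.08), act in the assembly of the lipid-linked precursor. The genes that fell act on glycans of the protein. MOGS, the glucosidase that trims the first glucose, had 1505, 1352 and 1301 normalized counts with DMSO and 758, 761 and 758 at 50 nM (log2 fold change -0.87 ± 0.06 (SE), adjusted p = 5.2e-09). MGAT1 (-0.44 ± 0.04), MAN1A1 (-0.47 ± 0.06) and MAN1B1 (-0.33 ± 0.05) fell by less, with 7 falls without 0.5 nM replicate 2.

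**Figure D3:**
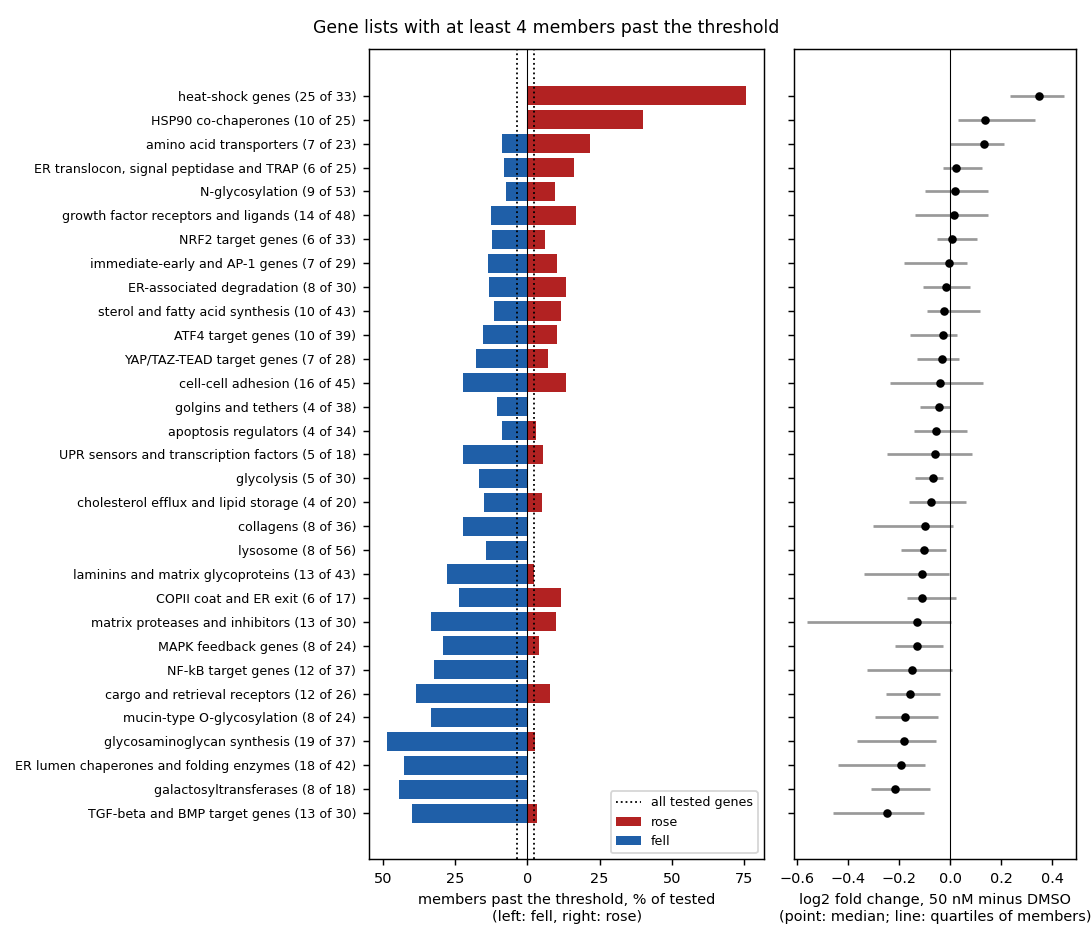
Share of the tested members of each gene list that fell (blue, left) or rose (red, right) at 50 nM, with the shares over all tested genes as dotted lines, and beside it the median log2 fold change with the quartiles over members; lists with at least 4 members past the threshold are drawn. Heat-shock genes stand at the top with 25 rises among 33 members, and lists of the secretory pathway and of TGF-beta and BMP targets lie at the bottom.

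Of 43 laminins and matrix glycoproteins 12 fell and 1 rose. Of 36 genes for collagens and their modifying enzymes 8 fell and 0 rose (14 and 3 at an unadjusted p, 9 and 0 by edgeR, 7 and 0 by DESeq2). The latter had 5 falls without 50 nM replicate 1. OLFML2A (chr9:124777133-124814885), a secreted olfactomedin-domain protein, had 339, 326 and 325 normalized counts with DMSO and 72.0, 89.5 and 84.0 at 50 nM and fell by 75.1% (log2 fold change -2.00 ± 0.13 (SE), adjusted p = 6.0e-09), the largest fall under the naming rule. MATN2, a matrilin that links matrix fibres, had 342, 338 and 354 normalized counts with DMSO and 117, 103 and 107 at 50 nM (log2 fold change -1.65 ± 0.09 (SE), adjusted p = 4.4e-10). FBN1, the fibrillin of microfibrils, had 992, 974 and 902 normalized counts with DMSO and 427, 367 and 413 at 50 nM (log2 fold change -1.25 ± 0.10 (SE), adjusted p = 1.8e-07). The groups of each stood far apart.

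COL13A1, a transmembrane collagen, had 4984, 4954 and 4873 normalized counts with DMSO and 2987, 3261 and 2897 at 50 nM (log2 fold change -0.70 ± 0.05 (SE), adjusted p = 7.0e-08). COL5A1, a fibrillar collagen, had 2874, 2848 and 2792 normalized counts with DMSO and 1890.0, 1919 and 1832 at 50 nM (log2 fold change -0.59 ± 0.07 (SE), adjusted p = 1.1e-05). VWA1, a matrix protein of basement membranes, had 1076, 1028 and 990.2 normalized counts with DMSO and 437, 596 and 519 at 50 nM (log2 fold change -1.004 ± 0.11 (SE), adjusted p = 3.1e-06). LAMB3, a chain of laminin-332, was the matrix glycoprotein that rose, with 4485, 4305 and 4306 normalized counts with DMSO and 5552, 5887 and 5570.3 at 50 nM (log2 fold change 0.38 ± 0.04 (SE), adjusted p = 9.2e-06). Of 30 matrix proteases and inhibitors 10 fell and 3 rose. MMP14 (chr14:22836560-22849041), a membrane-bound collagenase, had 10347, 10281 and 9778 normalized counts with DMSO and 5005, 5303 and 5137 at 50 nM and fell by 49.2% (log2 fold change -0.98 ± 0.05 (SE), adjusted p = 3.5e-10). The urokinase receptor PLAUR had 2899, 2822 and 2660.1 normalized counts with DMSO and 1598, 1609 and 1524 at 50 nM (log2 fold change -0.82 ± 0.05 (SE), adjusted p = 4.3e-09). Its ligand PLAU, 31.0% of whose exon bases lie within exons of another gene, had 2918, 2816 and 2740.3 normalized counts with DMSO and 1980.3, 2011 and 1741 at 50 nM (log2 fold change -0.57 ± 0.05 (SE), adjusted p = 2.7e-07). ADAMTS6 (0.92 ± 0.18) and ADAMTS1 (0.24 ± 0.07) were among the proteases and inhibitors that rose. The call of ADAMTS1 was lost without a filter. It was also lost when any DMSO replicate, 5 nM replicate 2 or 50 nM replicate 1 or 3 was left out.

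Of 19 integrin subunits 3 fell and 0 rose (6 and 3 at an unadjusted p, 3 and 0 by edgeR, 3 and 1 by DESeq2). ITGA5, the fibronectin receptor chain, had 2882, 2888 and 2771 normalized counts with DMSO and 1771, 1839 and 1683 at 50 nM (log2 fold change -0.69 ± 0.06 (SE), adjusted p = 9.8e-08). ITGB5 had 2765, 2790.1 and 2709 normalized counts with DMSO and 1808, 2046 and 1754 at 50 nM (log2 fold change -0.56 ± 0.06 (SE), adjusted p = 1.8e-06). ITGA6, a laminin receptor chain, had 8307, 8376 and 8471 normalized counts with DMSO and 5798, 5829 and 5694 at 50 nM (log2 fold change -0.54 ± 0.06 (SE), adjusted p = 8.5e-06). In each of them every treated library lay below every control. ITGAV, which the study names, had 2385, 2421 and 2576 normalized counts with DMSO and 2155, 2039 and 2267 at 50 nM and did not pass the threshold (log2 fold change -0.19 ± 0.07 (SE), adjusted p = 0.12), although its groups did not overlap. Of 51 focal adhesion and actin-linked genes VASP (-0.20 ± 0.04) and TNS2 (-0.26 ± 0.06) fell and 0 rose (5 and 2 at an unadjusted p, 2 and 0 by edgeR, 4 and 0 by DESeq2), with 4 falls without 0.5 nM replicate 2 and 1 when DMSO replicate 2 or 3 or 50 nM replicate 1 or 3 was left out. The share of this list that fell (3.92%) was near the 3.71% of all tested genes.

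Of 45 genes for contacts between cells 10 fell (22.2%) and 6 rose (13.3%), against 3.71% and 2.29% of all tested genes. CDH11, a mesenchymal cadherin, had 1709, 1597 and 1477 normalized counts with DMSO and 751, 849 and 762 at 50 nM (log2 fold change -1.02 ± 0.08 (SE), adjusted p = 7.0e-08). The protocadherin PCDH7 had 564, 502 and 531 normalized counts with DMSO and 295, 311 and 291 at 50 nM (log2 fold change -0.83 ± 0.08 (SE), adjusted p = 1.1e-06). ICAM1, a ligand of leukocyte integrins, had 958, 859.9 and 814 normalized counts with DMSO and 337, 465 and 362 at 50 nM (log2 fold change -1.19 ± 0.10 (SE), adjusted p = 3.0e-07). The exons of ICAM1 share 25.4% of their bases with antisense and other genes, and whether the counting used strand is not given in the sources used here. The genes that rose were led by the tight-junction protein CLDN4 with 1985, 1979 and 1897 normalized counts with DMSO and 2548, 2756 and 2589 at 50 nM (log2 fold change 0.43 ± 0.05 (SE), adjusted p = 3.8e-06), the nectin-like receptor PVR (0.39 ± 0.05) and the gap-junction protein GJA1 (0.40 ± 0.06). The other rises were those of CLDN1, CLDN12 and ESAM, so that 3 of the 6 were claudins.

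Among 48 growth factor receptors and ligands 8 rose and 6 fell, with 13 rises without 0.5 nM replicate 2 and 3 falls without DMSO replicate 3. EPHA2, an ephrin receptor, had 9979.7, 10032 and 9608 normalized counts with DMSO and 14029.7, 13579.6 and 13874 at 50 nM (log2 fold change 0.49 ± 0.04 (SE), adjusted p = 7.6e-08). MERTK, a receptor for apoptotic cells, had 392.1, 409 and 394 normalized counts with DMSO and 618, 629 and 632 at 50 nM (log2 fold change 0.65 ± 0.07 (SE), adjusted p = 2.1e-06). The orphan receptor GPRC5A had 4058, 4295 and 4106 normalized counts with DMSO and 5671, 5236 and 5595 at 50 nM (log2 fold change 0.40 ± 0.05 (SE), adjusted p = 5.9e-05). EGFR had 4617, 4676 and 4629 normalized counts with DMSO and 7008, 6019 and 7043 at 50 nM (log2 fold change 0.52 ± 0.11 (SE), adjusted p = 0.0062). These receptors were higher in every treated library, and the ligand NRG1 also rose. The falls were those of the ligands VEGFC (-0.38 ± 0.06), PDGFC (-0.25 ± 0.05), EFNA1 (-0.58 ± 0.12), EREG and AREG and of the receptor TGFBR1. NRG1, AREG and TGFBR1 were chosen after their values were seen.

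Targets of BMP and TGF-beta signalling had the lowest median of all lists at -0.25, with 12 of 30 members fallen. ID1 (chr20:31605283-31606515), an inhibitor of helix-loop-helix factors and a direct BMP target, had 6824, 6909.5 and 6995 normalized counts with DMSO and 2939, 2943 and 2794 at 50 nM and fell by 58.1% (log2 fold change -1.26 ± 0.06 (SE), adjusted p = 3.3e-10). ID3 had 1338, 1362 and 1207 normalized counts with DMSO and 597, 595 and 529.7 at 50 nM (log2 fold change -1.18 ± 0.08 (SE), adjusted p = 8.1e-09). SMAD7, a feedback inhibitor of the pathway, had 311, 309 and 295 normalized counts with DMSO and 182, 170.3 and 184 at 50 nM (log2 fold change -0.77 ± 0.09 (SE), adjusted p = 1.1e-05). HES1, a repressor downstream of Notch, had 340.2, 315 and 306 normalized counts with DMSO and 127, 121 and 141 at 50 nM (log2 fold change -1.30 ± 0.11 (SE), adjusted p = 1.9e-07).

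Of 37 NF-kB targets 12 fell and 0 rose (15 and 1 at an unadjusted p, 12 and 0 by edgeR, 13 and 0 by DESeq2). CSF1, the macrophage growth factor, had 11451, 10969 and 10610.1 normalized counts with DMSO and 5571, 6118 and 5444 at 50 nM (log2 fold change -0.95 ± 0.06 (SE), adjusted p = 4.2e-09), and it was followed by PLAU and ICAM1. Of 24 MAPK feedback genes 7 fell (29.2%) and 1, EPHA2, rose (4.17%), against 3.71% and 2.29% of all tested genes. There were 2 to 4 falls when any DMSO replicate or 50 nM replicate 1 or 3 was left out (3, 4, 3, 2 and 3). ERRFI1, an inhibitor of EGFR, had 11490.3, 11510.5 and 11666 normalized counts with DMSO and 8418, 9782 and 8685 at 50 nM (log2 fold change -0.37 ± 0.06 (SE), adjusted p = 7.9e-04). The ETS factors ETV5 (-0.22 ± 0.05) and ETV1 (-0.26 ± 0.06) fell by less. Immediate-early and AP-1 genes moved both ways, with 3 rises and 4 falls of 29. FOSL1 (0.30 ± 0.05), JUN (0.23 ± 0.04) and MYC (0.19 ± 0.05) rose, whereas KLF10 (-0.36 ± 0.05), JUNB (-0.66 ± 0.09), KLF2 (-0.45 ± 0.10) and CCN1 (-0.23 ± 0.05) fell.

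Of 28 targets of YAP and TAZ 5 fell (17.9%) and 2 rose (7.14%), against 3.71% and 2.29% of all tested genes. CRIM1 (-0.54 ± 0.06), F3 (-0.34 ± 0.05), NT5E (-0.31 ± 0.05), TGFB2 (-0.28 ± 0.06) and CCN1 fell. AXL (0.15 ± 0.04) and ASAP1 (0.28 ± 0.08) rose, calls that were both lost when any DMSO replicate or 50 nM replicate 1 or 3 was left out and of which 1 was left without 50 nM replicate 2. Of 44 interferon-stimulated genes IRF1 (-0.43 ± 0.08) and IFI16 (-0.25 ± 0.05) fell and 0 rose (4 and 1 at an unadjusted p, 2 and 0 by edgeR and by DESeq2), with 4 falls without 50 nM replicate 2. The share that fell (4.55%) was near the 3.71% of all tested genes. Of 25 p53 targets AEN rose (0.32 ± 0.07) and CDKN1A fell, with 3 rises and 4 falls without 0.5 nM replicate 2 and 2 falls when DMSO replicate 2, 5 nM replicate 3 or 500 nM replicate 2 was dropped. Without 0.5 nM replicate 3 there were 2 rises. In the main fit 4.0% of the p53 targets rose and 4.0% fell, against 2.29% and 3.71% of all tested genes. CDKN1A, the cell-cycle inhibitor p21, had 1633, 1580.2 and 1668 normalized counts with DMSO and 1136, 1220.3 and 1107 at 50 nM (log2 fold change -0.50 ± 0.05 (SE), adjusted p = 2.1e-06).

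NFE2L1 (chr17:48048329-48061545) encodes an ER-anchored CNC factor that activates proteasome genes. It had 5511, 5752 and 5416 normalized counts with DMSO and 2302, 2307 and 2277 at 50 nM and fell by 58.7% (log2 fold change -1.28 ± 0.07 (SE), adjusted p = 4.7e-10). Its relative NFE2L3 had 3159.7, 3253 and 3117 normalized counts with DMSO and 1743, 1973 and 1705 at 50 nM (log2 fold change -0.82 ± 0.06 (SE), adjusted p = 1.3e-08), although 28.1% of its exon bases lie within exons of HNRNPA2B1 and it has a nearly identical pseudogene. NFE2L2, which encodes NRF2, had 1822, 1791 and 1767 normalized counts with DMSO and 1569.8, 1571 and 1547 at 50 nM and fell slightly (log2 fold change -0.20 ± 0.04 (SE), adjusted p = 0.0069), with 38.4% of its exon bases shared with other genes. All 3 family members were lower in every treated library. Of the 33 genes of the NRF2 list, which includes them, UGDH (-0.16 ± 0.04) also fell, and SLC7A11 and SQSTM1 (0.18 ± 0.05) rose, 1 of them when DMSO replicate 2 or 3 or 50 nM replicate 1 or 3 was left out and 4 genes without 0.5 nM replicate 2. In the main fit 6.06% of this list rose and 12.1% fell, against 2.29% and 3.71% of all tested genes.

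Of 56 lysosomal genes 8 fell and 0 rose (18 and 2 at an unadjusted p, 8 and 0 by edgeR, 9 and 0 by DESeq2). NAGLU, which degrades heparan sulfate, had 405, 415 and 370.3 normalized counts with DMSO and 190.2, 188 and 190.4 at 50 nM (log2 fold change -1.06 ± 0.09 (SE), adjusted p = 3.5e-07). SGSH, an enzyme of the same pathway, had 548, 554 and 538 normalized counts with DMSO and 314, 327 and 261 at 50 nM (log2 fold change -0.87 ± 0.09 (SE), adjusted p = 2.0e-06). The acid phosphatase ACP2 had 655, 658 and 668 normalized counts with DMSO and 464, 396 and 452 at 50 nM (log2 fold change -0.60 ± 0.06 (SE), adjusted p = 3.0e-06). The V-type ATPase acidifies Golgi and lysosome. Of 24 subunits ATP6V0A1, with 699, 659 and 635 normalized counts with DMSO and 993, 931 and 1019 at 50 nM (log2 fold change 0.56 ± 0.05 (SE), adjusted p = 1.1e-06), and ATP6V0A2, with 742, 721 and 729 normalized counts with DMSO and 1049.8, 942 and 1034 at 50 nM (log2 fold change 0.46 ± 0.07 (SE), adjusted p = 1.5e-04), rose and 0 fell (3 and 1 at an unadjusted p, 2 and 0 by edgeR, 3 and 0 by DESeq2). Both encode isoforms of subunit a, and the median over the 24 was 0.02. Of 44 autophagy genes SQSTM1 rose, and WIPI1 (-0.33 ± 0.09) and GABARAPL1 (-0.33 ± 0.09) fell. These shares (2.27% and 4.55%) were near the 2.29% and 3.71% of all tested genes. The call of SQSTM1 was lost when DMSO replicate 2 or 3 or 50 nM replicate 1 or 3 was dropped. Leaving out 1 library gave 0 falls for DMSO replicate 2 and 50 nM replicates 1 and 3, 1 for DMSO replicates 1 and 3, and 4 for 0.5 nM replicate 2.

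Sterol and fatty acid genes split. Of 43 tested 5 rose and 5 fell (11.6% each), against 2.29% and 3.71% of all tested genes. The rises numbered 3 when DMSO replicate 2 or 3 was dropped and 2 when 50 nM replicate 1 was, and there were 2 and 3 falls without 50 nM replicates 1 and 3. The sterol sensor partner INSIG1 had 399, 326 and 363 normalized counts with DMSO and 186, 254 and 199.97 at 50 nM (log2 fold change -0.77 ± 0.11 (SE), adjusted p = 9.9e-05). It fell, as did STARD4 (-0.30 ± 0.07), SCD (-0.55 ± 0.13) and IDI1 (-0.30 ± 0.09). The elongases ELOVL5 (0.25 ± 0.04) and ELOVL1 (0.19 ± 0.04), the SREBP escort protein SCAP (0.18 ± 0.05) and FADS3 (0.17 ± 0.05) were among the genes that rose. Of 20 genes of cholesterol efflux and lipid storage SOAT1 (0.21 ± 0.05) rose and DGAT2 (-0.55 ± 0.15), MYLIP (-0.32 ± 0.09) and PLIN3 (-0.15 ± 0.04) fell, with 1 fall without any DMSO replicate or 50 nM replicate 1 or 3. The call of SOAT1 was lost when 50 nM replicate 1 or 3 was dropped.

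Transcripts for ribosomes, respiration and the cell cycle showed few calls. The counts below stand beside 2.29% of all tested genes that rose and 3.71% that fell. Among 75 cytosolic ribosomal protein genes, 73 nuclear genes of the respiratory chain and 52 S phase genes 0 rose and 0 fell by limma, edgeR or DESeq2, and at an unadjusted p under 0.05 the rises numbered 2, 1 and 3 and the falls 0 in each list. Of 13 tubulins 0 changed by any of these tools, with 1 fall at an unadjusted p. Of 59 genes of G2 and M phase CDC25A rose (0.22 ± 0.06) and TTK fell (-0.23 ± 0.05). The rise of CDC25A was lost without a filter and when any DMSO replicate or 50 nM replicate 1 or 3 was dropped. The falls numbered 5, 2 and 4 without 0.5 nM replicate 2, 0.5 nM replicate 3 and 50 nM replicate 1. Of 49 splicing factors SRSF7 (0.18 ± 0.05) rose and 0 fell (3 and 2 at an unadjusted p, 1 and 0 by edgeR and by DESeq2). Of 34 apoptosis regulators TNFRSF10A (0.25 ± 0.06) rose and BIRC3 (-0.41 ± 0.05), BIRC2 (-0.20 ± 0.04) and BNIP3L (-0.21 ± 0.05) fell, with 6 falls without 0.5 nM replicate 2 and 5 without 50 nM replicate 2. The call of TNFRSF10A was lost when DMSO replicate 2 or 3 or 50 nM replicate 1 was dropped, and that of SRSF7 when DMSO replicate 1 or 2 or 50 nM replicate 1 was. Of 30 glycolysis and hypoxia genes SLC2A3 (-0.34 ± 0.08), PFKFB4 (-0.37 ± 0.09), PFKFB3 (-0.19 ± 0.05), CA12 (-0.40 ± 0.10) and EGLN3 (-0.26 ± 0.06) fell and 0 rose (10 and 1 at an unadjusted p, 5 and 0 by edgeR, 5 and 1 by DESeq2). This number was 1 when DMSO replicate 1 or 2 or 50 nM replicate 1 or 3 was dropped and 9 without 50 nM replicate 2. Of 46 translation factors EIF4A1 rose and 0 fell (4 and 1 at an unadjusted p, 1 and 0 by edgeR and by DESeq2). EIF4A1 had only 12.5, 11.1 and 13.2 normalized counts with DMSO and 27.9, 20.7 and 36.2 at 50 nM (log2 fold change 1.11 ± 0.27 (SE), adjusted p = 0.017). Of its exon bases 47.4% are shared with other genes and 2 transcripts are nearly identical, so its value is uncertain. Its call was lost when DMSO replicate 2 or 50 nM replicate 1 or 3 was dropped, and 3 translation factors rose without 0.5 nM replicate 2.

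Some of the largest changes belonged to none of these groups. PLD6, a phospholipase of the outer mitochondrial membrane, had 67.3, 79.9 and 71.0 normalized counts with DMSO and 139.7, 136 and 152 at 50 nM (log2 fold change 0.97 ± 0.12 (SE), adjusted p = 3.1e-05), with 24.3% of its exon bases inside other genes. STYK1, a membrane protein with a kinase-like domain, had 89.4, 88.0 and 86.2 normalized counts with DMSO and 150.4, 169 and 181 at 50 nM (log2 fold change 0.91 ± 0.12 (SE), adjusted p = 3.4e-05). F2RL3, the thrombin receptor PAR4, had 52.9, 53.6 and 29.4 normalized counts with DMSO and 61.2, 86.2 and 98.9 at 50 nM (log2 fold change 0.87 ± 0.24 (SE), adjusted p = 0.035), and 4 of the alternatives lost this call. The gene is one of the less certain rises, as its controls alone ranged widely. MLLT6, a chromatin reader, had 159.5, 96.1 and 165 normalized counts with DMSO and 31.2, 42.6 and 72.3 at 50 nM (log2 fold change -1.55 ± 0.37 (SE), adjusted p = 0.012). Its transcript also aligns to 1 alternate contig, and the call was lost in 3 alternatives. PHRF1, a ring finger protein with the lowest fold change of all genes that is too low in counts for the naming rule and was chosen after its values were seen, had 89.4, 78.9 and 82.2 normalized counts with DMSO and 9.67, 12.01 and 18.1 at 50 nM (log2 fold change -2.61 ± 0.64 (SE), adjusted p = 0.017).

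The 4 doses are compared through values that share the DMSO libraries. At 5 nM SLC3A2 stood at 0.65 ± 0.07 on the log2 scale, at 50 nM at 1.94 ± 0.07 and at 500 nM at 2.08 ± 0.07. HSPA8 stood at 0.24 ± 0.06, 0.97 ± 0.06 and 1.24 ± 0.06 and HSPH1 at 0.12 ± 0.07, 0.99 ± 0.07 and 1.45 ± 0.07 in the same order. For these rises the value at 50 nM was nearer to that at 500 nM than to that at 5 nM. CHPF stood at -0.53 ± 0.08, -1.65 ± 0.08 and -1.75 ± 0.08 and B4GALT1 at -0.21 ± 0.05, -0.82 ± 0.05 and -0.87 ± 0.05. ID1 stood at 0.01 ± 0.06, -1.26 ± 0.06 and -1.49 ± 0.06, and NFE2L1 at -0.14 ± 0.07, -1.28 ± 0.07 and -1.44 ± 0.07. DNAJC3 was already at -0.72 ± 0.07 at 5 nM (adjusted p = 1.1e-05), before -1.01 ± 0.07 and -1.10 ± 0.07.

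Between 5 and 50 nM, 679 genes differed, 355 higher and 324 lower at the higher dose, and between 50 and 500 nM 309 differed, 65 higher and 244 lower. Both contrasts share the 50 nM libraries with the comparison against DMSO. Of the 814 genes 122 moved further in the same direction from 50 to 500 nM past the threshold, and 6 moved back. NFE2L3 was among those that moved further, from -0.82 ± 0.06 to -1.89 ± 0.06 against DMSO, and so was CKAP4, from -1.02 ± 0.05 to -1.68 ± 0.05.

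**Figure D4:**
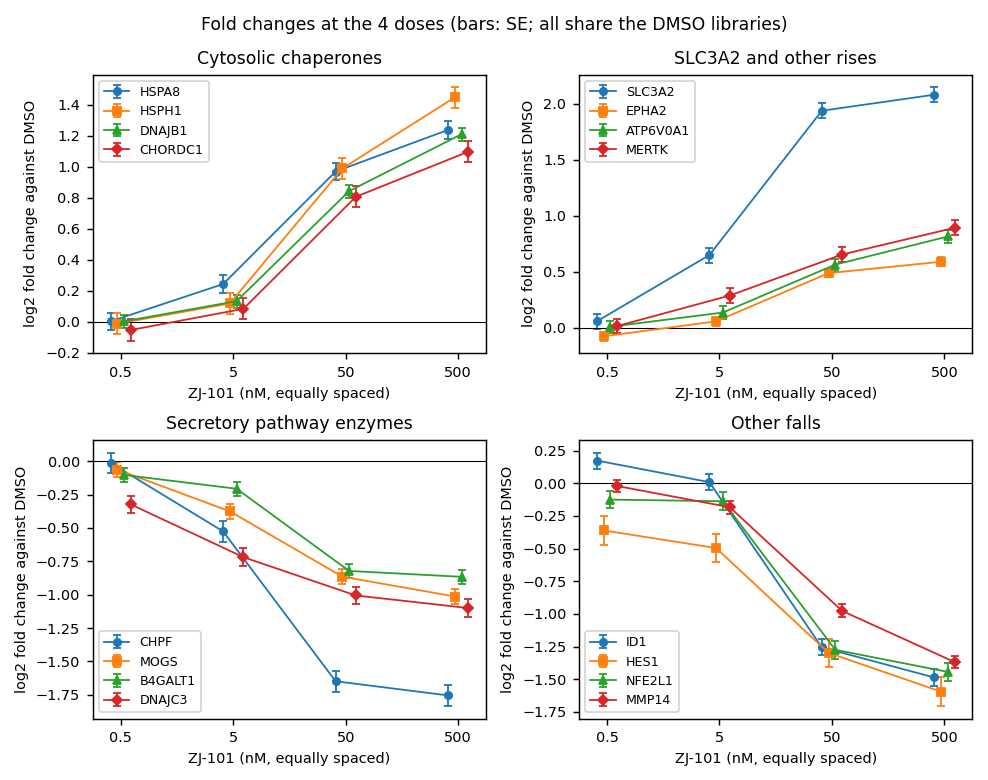
Log2 fold change against DMSO (vertical) at each of the 4 doses of ZJ-101 (horizontal, equally spaced) for 16 genes in 4 panels, with bars for the standard error of the fit. Most of the lines step between 5 and 50 nM, as for ID1 from 0.01 to -1.26, and DNAJC3 was lower already at 5 nM.

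The 5 and 500 nM libraries entered the comparison of 50 nM with DMSO only through the filter on low values and the shared spread. The 814 genes were therefore looked up in the contrast of 500 with 5 nM, in which 745 of all tested genes rose (5.49%) and 844 fell (6.22%). Of the 311 genes that rose at 50 nM, 229 rose there too (73.6%) and 3 fell, and the median log2 fold change was 0.33. Of the 503 that fell, 352 fell there too (70.0%) and 8 rose, with a median of -0.35. SLC3A2 differed by 1.43 ± 0.07, HSPH1 by 1.33 ± 0.07, OLFML2A by -1.46 ± 0.13, CKAP4 by -1.45 ± 0.05 and ID1 by -1.496 ± 0.06 on the log2 scale. The 3 genes that rose at 50 nM and were lower at 500 than at 5 nM were ADAMTS1 (-0.86 ± 0.07), AOX1 (-0.21 ± 0.05) and LRIG2 (-0.27 ± 0.08), of which the last 2 were chosen after their values were seen.

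**Figure D5:**
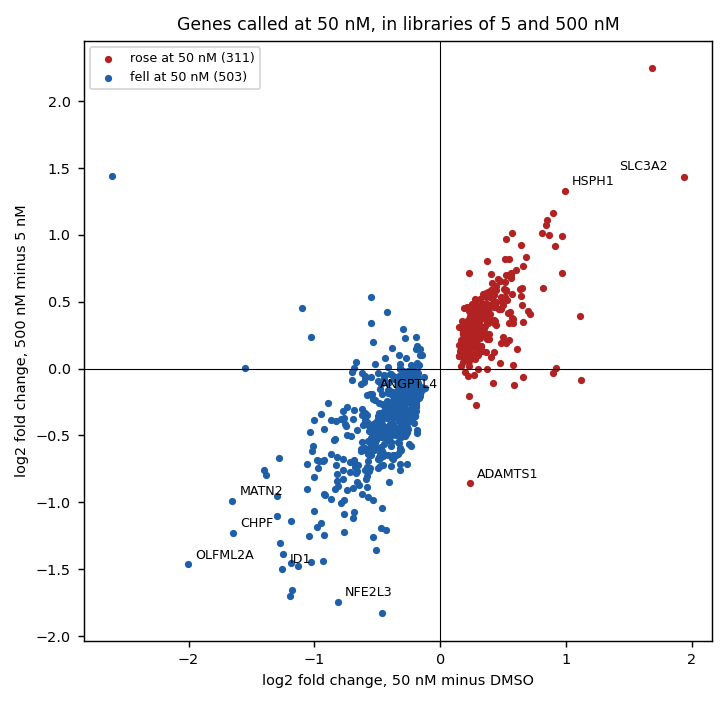
The 814 genes called at 50 nM, with the log2 fold change of 50 nM against DMSO (horizontal) and of 500 against 5 nM (vertical), whose fold changes come from different libraries; red points rose and blue points fell at 50 nM. Most points have the same sign on both axes, and ADAMTS1 is the clearest exception among the genes that rose.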

How the data were processed

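RNA-seq of 15 libraries of MDA-MB-231 cells in 2D culture was used, with 3 biological replicates each of DMSO and of 0.5, 5, 50 and 500 nM ZJ-101 for 6 h. The deposited signal values are normalized counts. Per the labels and methods, the authors used HISAT2 for alignment to hg38 and HTSeq for counting reads of poly-A RNA, and they scaled each library with the size factors of DESeq2. Tool versions and the strandedness of the counting are not given in the sources used here. Whole reads were recovered from the smallest step of each library (100.0% of values within 0.001 of a whole read), and the line of the table that gives doses was left out.

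The main test was limma (version 3.58.1, R 4.3.3, trend of variance on mean) on log2(normalized count + 1), with all 15 libraries in 5 groups, 10 residual degrees of freedom, Benjamini-Hochberg adjustment over 13561 genes and a threshold of 0.05. All fold changes refer to this log2 scale and come out too small for genes with few reads. The script was tested on simulated data. Members and gene lists were chosen with earlier results of these data known, and motifs after those results, so lists are described by counts and medians only. The naming rule takes the 8 largest rises and falls with a mean of at least 50 and groups that do not overlap, the 5 smallest p in each direction, the 3 smallest p in each direction per list, genes the study names for its transcriptome, and 5 that moved back at 500 nM. Some of the genes it takes are not reported here. Of 54 lists, 4 hold cell type markers. Some lists share members, so their counts are not separate.

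Alternatives were pseudocounts of 0.5 and 5, other filters (none, or a mean of at least 50), TMM scaling and equal totals, edgeR 4.0.16 (quasi-likelihood) and DESeq2 1.42.0 on recovered reads, the 6 libraries alone, a replicate block, a looser threshold (0.1) or a minimum size of 1 on the log2 scale, and each library left out. Positions and exon overlap came from GENCODE release 44 on GRCh38 (93.8% of tested symbols matched). Near-identical transcripts came from minimap2 2.31-r1302 (at least 95% identity over 50% of the length), and promoters from RefSeq on GRCh38.p14. Not every overlap is flagged where a gene is named. Exon bases shared with other genes also made up 28.1% in WIPI1, 26.0% in RER1 and 23.8% in SLC1A5. The share was 22.9% in IRF1, 22.4% in SQSTM1, 20.8% in SSR3 and 20.6% in PVR.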

Additional observations from a re-analysis of the deposited data

Results flagged for a closer look

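For 6 genes the change at 50 nM against DMSO and the step from 50 to 500 nM went in opposite directions, each past the threshold (limma, Benjamini-Hochberg adjustment over 13561 genes). The contrasts share the 50 nM libraries. ADAMTS1, a matrix protease, rose at 50 nM (0.24 ± 0.07) and was lower at 500 than at 50 nM by -0.70 ± 0.07 on the log2 scale. FZD2, a Wnt receptor, likewise rose at 50 nM (0.18 ± 0.05) and then differed by -0.20 ± 0.05. ANGPTL4, a secreted inhibitor of lipoprotein lipase, fell at 50 nM (-0.54 ± 0.13) and was higher at 500 nM by 0.73 ± 0.13. AARS1 (-0.14 ± 0.04, then 0.20 ± 0.04), EREG, an EGFR ligand (-0.19 ± 0.05, then 0.24 ± 0.05), and the TNF receptor TNFRSF1A (-0.16 ± 0.05, then 0.22 ± 0.05) showed the same order. FZD2 falls outside the naming rule. The number of such genes was 1, 3 and 2 without DMSO replicate 1, 2 and 3 and 20 without 0.5 nM replicate 2, so it rests on single libraries.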

How the results depend on the processing

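The 814 calls became 820 by edgeR (328 up, 492 down), 833 by DESeq2 (336 up, 497 down), 812 with TMM scaling and 807 with equal totals. They became 678 without a filter and 864 with a mean of at least 50, and no gene was called in the opposite direction. Medians of some lists near 0 changed sign, as for N-glycosylation (-0.02 to 0.03) and cell-cell adhesion (-0.07 to 0.01). Over the lists 3872 values were classed as the same as in the main fit and 394 as moved. Leaving out 1 library gave 560 to 1276 calls, 197 to 539 rises and 356 to 737 falls. The genes that moved the same way between 5 and 500 nM then numbered 162 to 386 of those that rose and 264 to 470 of those that fell. The highest counts came without 0.5 nM replicate 2. With the 6 libraries alone 467 genes rose. At an adjusted p under 0.1, 498 genes rose, and 353 of them rose from 5 to 500 nM. With a minimum change of 1 on the log2 scale, 34 genes were left, 4 up and 30 down, and 2 and 14 of these passed in the same direction between 5 and 500 nM. The causes were not tested, other than that a stricter or looser threshold passes fewer or more genes by construction. Deviations of DMSO and 50 nM libraries with the same replicate number correlated at -0.04, 0.04 and 0.07, and those with different numbers at -0.10 to 0.06. No shared deviation was seen, but 3 libraries per group cannot exclude that the numbers pair the samples. With a replicate block 867 genes were called, 343 up and 524 down. Over the named genes 4281 values kept their side of the threshold, 212 lost it and 2 gained it, both of ITGAV. Replicates differed by more than sampling noise in every pair, with ratios of chi-square to degrees of freedom between 1.96 and 5.39. No pair thus looked like 1 library that was sequenced again. The ratio cannot tell separate dishes from separate preparations of 1 dish. At 12415519 to 14099280 reads per compared library, HSPA6, a gene with few reads, had a large standard error (0.44). That of PHRF1 was larger (0.64), although PLD6 and STYK1, with similar counts under DMSO, had smaller ones. These errors draw on the spread of all 15 libraries, and the source of that of PHRF1 was not tested.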

Other observations

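Transcripts encoded by the mitochondrial genome were higher on average in the 50 nM libraries than with DMSO in 13 of 13 genes, with a median log2 fold change of 0.31. The median was 0.11 without DMSO replicate 2, 0.16 and 0.17 without 50 nM replicates 2 and 3, 0.51 without DMSO replicate 3 and 0.56 without 50 nM replicate 1. For each 50 nM library against the mean of DMSO it was -0.19, 0.56 and 0.55. Of the 13 genes 0 passed the threshold by limma, edgeR or DESeq2 and 0 had an unadjusted p under 0.05. Their share of reads overlapped between the groups. At 5 nM the median was 0.63 against the same DMSO libraries. Among the marker lists EGFR and AXL rose and PLAUR, CD44 and LOX fell of 12 mesenchymal markers tested. ELF3 (-0.44 ± 0.09) and SPDEF (-0.23 ± 0.05) fell of 15 luminal markers, and 0 rose by limma, edgeR or DESeq2 or at an unadjusted p. Of 3 blood and endothelial markers tested KDR rose (0.66 ± 0.13) and CD14 fell at few reads (-1.01 ± 0.29). The call of CD14 was lost in 12 alternatives, and that of SPDEF when DMSO replicate 2 or 50 nM replicate 1 was dropped. Of 3 fibroblast markers 0 changed by any of these measures.

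Of the 20 genes with the smallest p that fell, 18 encode proteins that enter the secretory pathway or sit in its membranes, and the other 2 are the nuclear factors ID1 and ID3. Of the 20 with the smallest p that rose, 7 encode such proteins and 9 were classed as cytosol or nucleus. A further 1 each was classed as nucleus alone, mitochondrion, pseudogene or not classed. These classes were assigned by hand after the genes were known, and the share over all tested genes was not computed.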
